A study of Mus musculus with 10 samples.

Results

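Polycomb proteins keep genes silent in complexes that mark histones. Polycomb repressive complex 1 (PRC1) carries a RING ubiquitin ligase that marks a core histone, and Polycomb repressive complex 2 (PRC2) carries an EZH methyltransferase that methylates histone H3. In the male germ line of the mouse both complexes are known to act on genes of somatic cells and of later stages, and Scml2 is a PRC1 partner known mainly from germ cells. The 10 genes described here, Scml2, Scmh1, Bmi1, Rnf2, Ring1, Phc2, Ezh1, Ezh2, Eed and Suz12, were chosen by name with earlier results of these data in view, out of 21969 rows of the expression matrix. Their values and differences are therefore given as a description, and no p-value is printed for them. Where a member is said to be called, it passed an adjusted p under 0.05 in a fit to all genes. For genes chosen in this way such a call is also only a description. All 10 had a single row each and passed the filter on low values.

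RNA was sequenced from DBA/2 mouse testis cells on the way to cultured spermatogonial stem cells. Adult testis cells that bound magnetic beads coated with anti-CD9 antibody were taken at 0, 1, 2 and 3 weeks of culture, and the last group, GS cells, was an established stem cell culture. All groups were DBA/2 with no genetic change named in the labels, and the medium contained FGF2, GDNF and fetal bovine serum. There were 5 groups of 2 libraries, 10 in all. The labels do not say whether the 2 libraries of a group came from separate mice or cultures, so every spread and p-value here covers differences between libraries that may be technical.

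Levels are FPKM, a level per transcript length and sequencing depth, as normalized by the authors. The steps between low values gave about 10.3 to 21.1 M (mega) reads per library, at which 1 FPKM of a transcript of 2200 bases is 20.7 to 42.1 reads. The lowest value of any member, 3.62 FPKM for Ring1, was above the 1 FPKM used as a filter. Week 0 libraries held much RNA of differentiating germ cells: 7 spermatid markers summed to 22405 to 24107 FPKM in week 0, 148 to 155 in week 1, 8.80 to 9.30 in week 2, 7.34 to 10.4 in week 3 and 6.06 to 8.38 in GS cells. Of those 7 genes, Prm1, Prm2, Tnp2 and Acrv1 were listed at 0 in week 2 and in GS cells. The 9 spermatocyte markers summed to 4835 to 5197 FPKM in week 0 and to 133 to 267 in the later groups. Ldhc alone averaged 3358 FPKM in week 0. By mean, Sycp1 was not lower in any later group (58.5 FPKM in week 0, 59.7 to 78.8 later). Sycp3 was 92.6 in week 0 and 94.7 in week 3, but lower in the rest. The other genes of the list were lower in each later group. The 6 Leydig cell markers summed to 1539 to 1779 FPKM in week 0, 74.8 to 82.3 in week 1 and 2.87 to 9.85 in the later groups, and the 7 Sertoli cell markers to 295 to 309.9 in week 0, 66.2 to 66.9 in week 1 and 8.56 to 19.4 in the later groups. Amhr2 alone averaged 213 FPKM of the Sertoli list in week 0. Sox9 of that list went the other way at week 1, 28.3 FPKM against 2.77 in week 0. So did Star of the Leydig list, 58.9 against 40.8. The other genes of both lists were lower in week 1. The 10 fibroblast markers summed to 640 to 777 FPKM in week 0, 6468 to 6562 in week 1 and 269 to 623 in the later groups. The libraries are labelled as spermatogonial stem cells, and the 13 markers of undifferentiated spermatogonia summed to 355 to 510 FPKM in week 0, 1035 to 1036 in week 1, 2022 to 2217 in week 2, 2623 to 2718 in week 3 and 2306 to 2531 in GS cells, below the spermatid sum in week 0 and above it in each later group. Uchl1 alone averaged 327 FPKM in week 0, 1937 in week 3 and 1570 in GS cells. By mean, Gfra1, Bcl6b, Ret, Lhx1, Nanos2 and Sall4 were highest in week 2, with Bcl6b at 118 FPKM then and 23.7 in week 3. Zbtb16, Uchl1 and Lin28a were highest in week 3, and Id4, Etv5, Nanos3 and Pou5f1 in GS cells. In such bulk samples fewer cells of a type and less RNA per cell cannot be told apart, and the part of cell makeup in the results below was not tested.

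**Figure D1:**
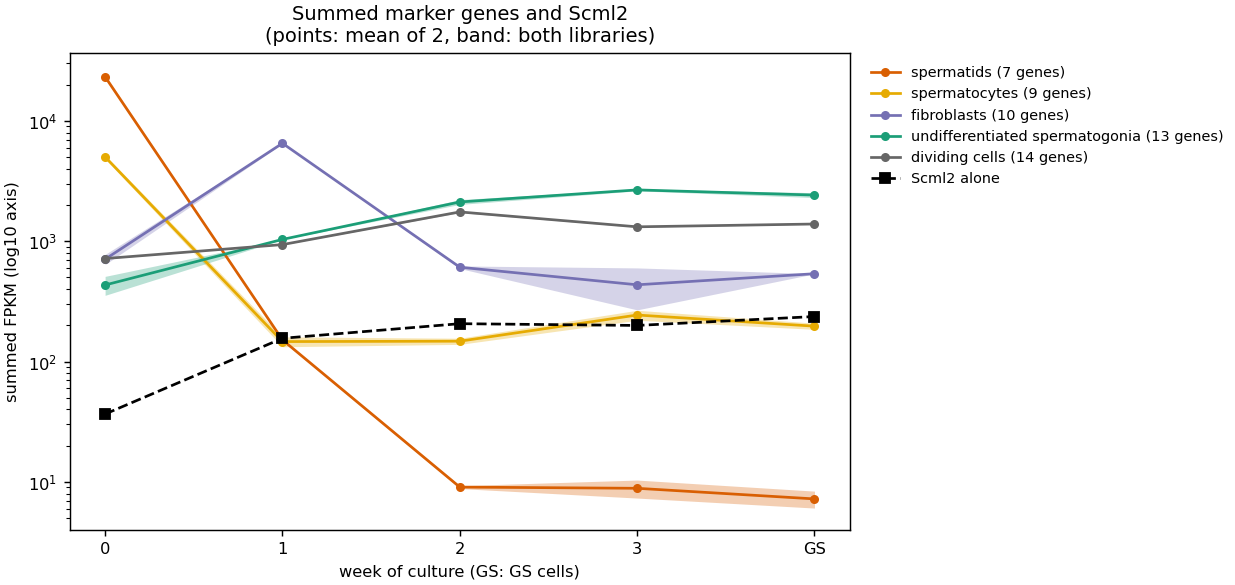
Summed FPKM of marker genes (log10 axis) by week of culture, with GS cells last; points are means of 2 libraries, bands span both libraries, and the dashed line is Scml2 alone. The sums of spermatid and spermatocyte markers drop after week 0, and that of fibroblast markers peaks in week 1. The sum of undifferentiated spermatogonia markers reaches 2623 to 2718 FPKM in week 3, where Uchl1 alone averages 1937. Single genes of a list can differ from its sum.

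The widest differences among the 10 genes, those of Scml2 and Ring1, were between week 0 and the later groups. Scml2 stood 4.26 times as high in week 1 as in week 0 and 6.46 times as high in GS cells as in week 0. Eed, Suz12 and Phc2 were also higher after week 0, while Ring1, Ezh2, Scmh1 and Bmi1 were lower in the values as deposited. Bmi1 in GS cells was not lower with a common FPKM sum, and Scmh1 was not called lower in week 1 or GS cells with quantile normalization. Scmh1 also differed more for week 3 against week 2 (-0.95) than for week 1 against week 0 (-0.72). Rnf2 did not follow this split, at 46.3 FPKM in week 0 and 46.8 in week 2. Ring1, one of the pair of RING ligases, averaged 5.44 ± 0.22 FPKM in week 1, against 36.3 ± 2.25 in week 0 (SD, n = 2 each). Ezh1 was highest in week 3.

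**Figure D2:**
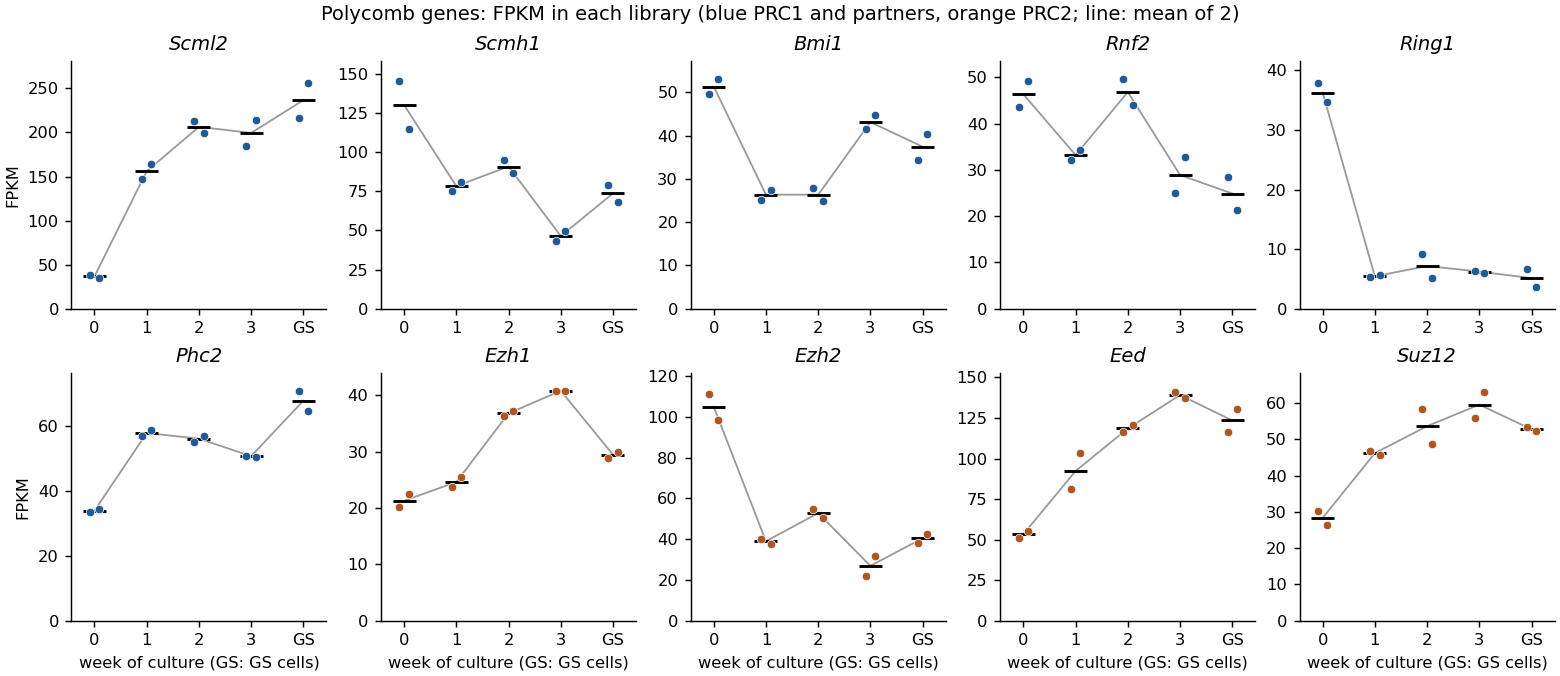
FPKM of each of the 10 members in all 10 libraries, with week of culture on the horizontal axis and GS cells last; points are single libraries and lines join the means of 2. Scml2 is at 34.7 and 38.5 FPKM in week 0 and at 147.7 FPKM or more in each of the 8 later libraries, while both week 0 libraries of Ring1 and Ezh2 lie above all later ones.

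Scml2 encodes a protein with MBT and SPM domains that joins PRC1. The gene (ENSMUSG00000000037.16) spans chrX:161117193-161258213 on the plus strand of GRCm38 in GENCODE M21. It had 38.5 and 34.7 FPKM in week 0, 148 and 164 in week 1, 213 and 199.8 in week 2, 185 and 214 in week 3, and 217 and 257 in GS cells. The week 0 libraries lay below all others, and those of weeks 2 and 3 overlapped. On the log2(FPKM + 1) scale of a limma fit to all 15671 genes past the filter, the difference was 2.06 (SE 0.11) for week 1 against week 0, 0.40 (SE 0.11) for week 2 against week 1, -0.05 (SE 0.11) for week 3 against week 2, 0.24 (SE 0.11) for GS cells against week 3 and 2.66 (SE 0.11) for GS cells against week 0. The all-gene median of the first of these contrasts was -0.14, so that Scml2 stood 2.197 above it. In FPKM, Scml2 ranked sixth of the 10 in week 0, where its libraries overlapped those of Ring1, and first at 156 ± 11.8 (SD, n = 2) in week 1, 206 ± 9.29 in week 2, 199.5 ± 20.3 in week 3 and 237 ± 28.2 in GS cells. The libraries of Scml2 and of the gene ranked next, Eed, did not overlap in these groups.

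The promoter of Scml2 is shown because its RNA differed most upward among the members. The window runs from 250 bases before to 30 bases after the RefSeq start (GRCm38.p6, chrX:161162500-161162779, plus strand), a start that lies inside the longer GENCODE gene. The sequence is of the C57BL/6J reference, from which DBA/2 may differ.
Scml2: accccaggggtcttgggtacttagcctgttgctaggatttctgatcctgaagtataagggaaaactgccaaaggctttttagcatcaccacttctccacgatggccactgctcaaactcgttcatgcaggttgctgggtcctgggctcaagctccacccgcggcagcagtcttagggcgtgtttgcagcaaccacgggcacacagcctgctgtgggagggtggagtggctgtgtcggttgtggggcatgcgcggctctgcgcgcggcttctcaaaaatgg
It held none of the 7 motifs searched. Its GC content over 300 bases was 57.3% with 13 CpG, beside medians of 52.7% and 7 CpG over 32851 RefSeq promoters.

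Scmh1 (ENSMUSG00000000085.16, chr4:120405281-120530186, plus strand) is a relative of Scml2 with the same domain types. It had 146 and 115 FPKM in week 0, 75.5 and 81.1 in week 1, 95.3 and 86.4 in week 2, 43.5 and 49.5 in week 3, and 79.1 and 68.3 in GS cells. The week 0 libraries were the highest and the week 3 libraries the lowest, with no overlap with any other group. The difference was -0.72 (SE 0.13) for week 1 against week 0, -0.95 (SE 0.13) for week 3 against week 2 and 0.65 (SE 0.13) for GS cells against week 3. With quantile normalization the first was -0.14 and GS cells against week 0 was -0.26, beside -0.81 as deposited, and neither was then called. Within a library, the ratio of Scml2 to Scmh1 was 0.265 and 0.302 in week 0, 1.96 and 2.03 in week 1, 2.23 and 2.31 in week 2, 4.26 and 4.32 in week 3, and 2.74 and 3.76 in GS cells. Scmh1 was thus the higher of the pair in week 0 and Scml2 in all 8 later libraries.

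Rnf2 and Ring1 are the alternative RING ligases of PRC1. Ring1 (ENSMUSG00000024325.8, chr17:34020792-34024680, minus strand) had 37.9 and 34.7 FPKM in week 0, 5.28 and 5.59 in week 1, 9.25 and 5.09 in week 2, 6.39 and 6.07 in week 3, and 6.68 and 3.62 in GS cells. All 8 later libraries lay far below week 0, and among the later groups only weeks 1 and 3 did not overlap each other. The difference was -2.53 (SE 0.28) for week 1 against week 0 and -2.64 (SE 0.28) for GS cells against week 0, the widest downward among the 10 genes. Rnf2 (ENSMUSG00000026484.13, chr1:151458004-151500955, minus strand) had 43.5 and 49.1 FPKM in week 0, 32.1 and 34.3 in week 1, 49.6 and 44.1 in week 2, 25.1 and 32.8 in week 3, and 28.5 and 21.3 in GS cells. Weeks 0 and 2 overlapped, and so did week 3 with week 1 and with GS cells. Its difference of -0.47 (SE 0.17) for week 1 against week 0 was the smallest of the 5 lower members, and was -0.02 with quantile normalization and -0.22 with a common FPKM sum, called in neither. The ratio of Rnf2 to Ring1 averaged 1.28 ± 0.19 (SD, n = 2) in week 0, 6.11 ± 0.031 in week 1, 7.01 ± 2.34 in week 2, 4.66 ± 1.04 in week 3 and 5.07 ± 1.138 in GS cells. Their summed level was 82.6 ± 1.71 FPKM in week 0, 38.7 ± 1.72 in week 1, 54.0 ± 6.81 in week 2, 35.1 ± 5.24 in week 3 and 30.0 ± 7.28 in GS cells. An exon of Rnf2 overlaps Trmt1l on the other strand, and whether the counting used strand is unknown.

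**Figure D3:**
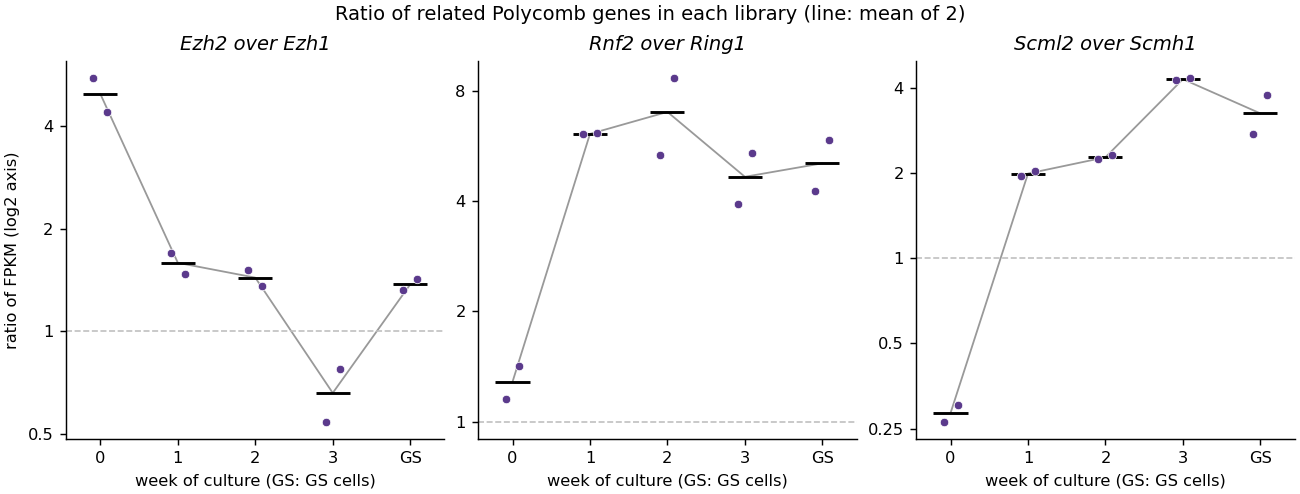
Ratio of FPKM within a library for pairs of related members (log axis), by week of culture with GS cells last; points are single libraries. Ezh2 over Ezh1 is lowest in week 3, Rnf2 over Ring1 is near 1 only in week 0, and Scml2 over Scmh1 is below 1 only in week 0.

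Bmi1 and Phc2 are further subunits of canonical PRC1, which also holds CBX proteins. Bmi1 (ENSMUSG00000026739.13, chr2:18677018-18686629, plus strand), a PCGF subunit known for stem cell maintenance, had 49.5 and 53.1 FPKM in week 0, 25.2 and 27.5 in week 1, 27.8 and 24.9 in week 2, 41.4 and 44.8 in week 3, and 34.4 and 40.4 in GS cells. Weeks 1 and 2 overlapped and were lowest, week 0 was highest, and week 3 and GS cells lay between. The difference was -0.94 (SE 0.11) for week 1 against week 0 and 0.69 (SE 0.11) for week 3 against week 2. For GS cells against week 0 it was -0.45 (SE 0.11), -0.03 with quantile normalization and 0.03 when every library was scaled to a common FPKM sum, called in neither of these. Phc2 (ENSMUSG00000028796.17, chr4:128654702-128752881, plus strand), a polyhomeotic subunit whose SAM domain joins PRC1 units into chains, had 33.4 and 34.4 FPKM in week 0, 56.8 and 58.7 in week 1, 55.1 and 56.9 in week 2, 50.8 and 50.5 in week 3, and 70.7 and 64.7 in GS cells. The week 0 libraries were lowest and the GS cell libraries highest. The difference was 0.75 (SE 0.073) for week 1 against week 0 and 0.41 (SE 0.073) for GS cells against week 3.

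Ezh2 and Ezh1 are the alternative methyltransferases of PRC2, Ezh2 known from dividing cells and Ezh1 from resting ones as well. Ezh2 (ENSMUSG00000029687.16, chr6:47530139-47595341, minus strand) had 111 and 98.7 FPKM in week 0, 40.3 and 37.7 in week 1, 55.0 and 50.6 in week 2, 22.2 and 31.6 in week 3, and 38.3 and 42.7 in GS cells. Week 0 was highest and week 3 lowest, each without overlap, while week 1 and GS cells overlapped. The difference was -1.40 (SE 0.16) for week 1 against week 0, 0.43 (SE 0.16) for week 2 against week 1, -0.97 (SE 0.16) for week 3 against week 2 and 0.59 (SE 0.16) for GS cells against week 3. Without the first week 3 library the last of these was 0.34. Ezh1 (ENSMUSG00000006920.14, chr11:101191115-101226463, minus strand) had 20.2 and 22.4 FPKM in week 0, 23.7 and 25.5 in week 1, 36.3 and 37.3 in week 2, 40.8 and 40.8 in week 3, and 28.9 and 30.0 in GS cells. The groups of Ezh1 did not overlap, and GS cells lay between weeks 1 and 2. Its difference was 0.20 (SE 0.085) for week 1 against week 0, which was not called but was 0.65 with quantile normalization and 0.44 with a common FPKM sum, called in both and in 5 of 19 alternatives. It was 0.56 (SE 0.085) for week 2 against week 1 and -0.46 (SE 0.085) for GS cells against week 3.

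The ratio of Ezh2 to Ezh1 was 5.52 and 4.404 in week 0, 1.70 and 1.48 in week 1, 1.52 and 1.36 in week 2, 0.544 and 0.775 in week 3, and 1.32 and 1.42 in GS cells. Ezh1 was the higher of the pair only in the week 3 libraries. Ezh1 and Ezh2 together summed to 126 ± 7.32 FPKM in week 0, 63.6 ± 0.59 in week 1, 89.6 ± 2.44 in week 2, 67.7 ± 6.71 in week 3 and 69.9 ± 3.85 in GS cells (SD, n = 2 each). The 14 markers of dividing cells summed to 713 to 723 FPKM in week 0, 935 to 940 in week 1, 1728 to 1775 in week 2, 1307 to 1327 in week 3 and 1383 to 1397 in GS cells. By group mean, both sums ran in the same order over the 4 later groups, highest in week 2 and lowest in week 1. Single marker genes differed from this, as seen afterwards. Among the later groups Rrm2, Tyms and Pcna were lowest in week 3, with Rrm2 at 16.9 FPKM then and 33.9 in week 1. Tyms was highest in week 1, and Mcm4 and Mcm7 in GS cells. The rest of the marker list followed the order of the sum at its highest and lowest group. The methyltransferase sum of the week 3 libraries, 63.0 and 72.5 FPKM, overlapped that of week 1 (64.0 and 63.2) and of GS cells (67.2 and 72.6). Ezh2 alone was lowest in week 3. In week 0 the methyltransferase sum was the highest of its groups and the marker sum the lowest. Within that list Plk1 averaged 12.7 FPKM in week 1, against 76.7 in week 0, Cdk1 58.4 against 79.9 and Mcm7 81.7 against 98.9. These were named after their values were seen. Every other gene of the list averaged higher in week 1 than in week 0, such as Tyms at 65.4 FPKM against 12.6. The part of cell division in the levels of Ezh1 and Ezh2 was not tested.

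Eed and Suz12 are the non-catalytic core subunits of PRC2. Eed (ENSMUSG00000030619.9, chr7:89954654-89980983, minus strand), which binds methylated histone H3, had 51.3 and 55.5 FPKM in week 0, 81.5 and 103 in week 1, 117 and 121 in week 2, 141 and 137 in week 3, and 116 and 131 in GS cells. The difference was 0.77 (SE 0.11) for week 1 against week 0 and 1.19 (SE 0.11) for GS cells against week 0. It was 0.37 (SE 0.11) for week 2 against week 1, and 0.20 without the first week 1 library. Week 0 was lowest and week 3 highest, each without overlap, and GS cells overlapped week 2. Suz12 (ENSMUSG00000017548.15, chr11:79993106-80034123, plus strand), the scaffold of the complex, had 30.2 and 26.5 FPKM in week 0, 46.8 and 45.7 in week 1, 58.5 and 48.9 in week 2, 55.9 and 63.2 in week 3, and 53.4 and 52.2 in GS cells. Both week 0 libraries were lowest, and week 2 overlapped week 3 and GS cells. The difference was 0.69 (SE 0.11) for week 1 against week 0 and 0.88 (SE 0.11) for GS cells against week 0. The ratio of Eed to Suz12 stayed between 1.70 and 2.52 in all 10 libraries, whereas that of Suz12 to Ezh2 was 0.271 and 0.269 in week 0 and 0.965 or more in each later library. Non-coding genes on the other strand overlap exons of Ezh2, Eed and Suz12, and with the use of strand unknown their reads cannot be told apart.

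The promoters of Ezh2 and Suz12 are shown because these partners of one complex differed in opposite directions after week 0. Each window runs from 250 bases before to 30 bases after the RefSeq start on GRCm38.p6, chr6:47595001-47595280 on the minus strand for Ezh2 and chr11:79992856-79993135 on the plus strand for Suz12. Capitals mark matches to the E2F motif.
Ezh2: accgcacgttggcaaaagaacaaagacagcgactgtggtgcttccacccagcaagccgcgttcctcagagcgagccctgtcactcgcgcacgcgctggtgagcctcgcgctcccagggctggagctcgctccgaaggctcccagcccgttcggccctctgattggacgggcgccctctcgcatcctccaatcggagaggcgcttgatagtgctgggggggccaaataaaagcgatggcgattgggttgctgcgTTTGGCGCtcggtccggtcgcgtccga
Suz12: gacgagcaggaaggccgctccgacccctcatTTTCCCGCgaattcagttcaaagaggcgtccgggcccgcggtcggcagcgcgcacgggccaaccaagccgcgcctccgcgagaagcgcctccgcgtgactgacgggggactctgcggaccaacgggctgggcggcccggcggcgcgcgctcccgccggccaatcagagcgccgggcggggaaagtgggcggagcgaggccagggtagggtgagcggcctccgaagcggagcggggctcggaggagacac
Ezh2 matched TTTGGCGC, starting 3 bases after the first transcribed base, and Suz12 matched TTTCCCGC, starting 219 bases before it. These letters were found on either strand in 0.514% and 1.07% of 32851 RefSeq promoters of 300 bases, and the other E2F form searched, TTTCGCGC, in 0.323%. CCAAT, held by 37.4% of promoters, occurred in Ezh2 on both strands and in Suz12 once. The remaining motifs searched were the CRE (TGACGTCA, 1.79% of promoters), the E-box (CACGTG, 7.15%) and the TATA box (TATAAA, 13.6%), and none of these was in either window. GC content was 64.3% with 31 CpG for Ezh2 and 71.0% with 41 CpG for Suz12. Eed, which like Suz12 was higher after week 0, had no match to any E2F form in its window, which is not shown. Nor did Ezh1 or any member outside PRC2, so E2F matches were not shared by the members. A match of letters is a description of the sequence only.

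**Figure D4:**
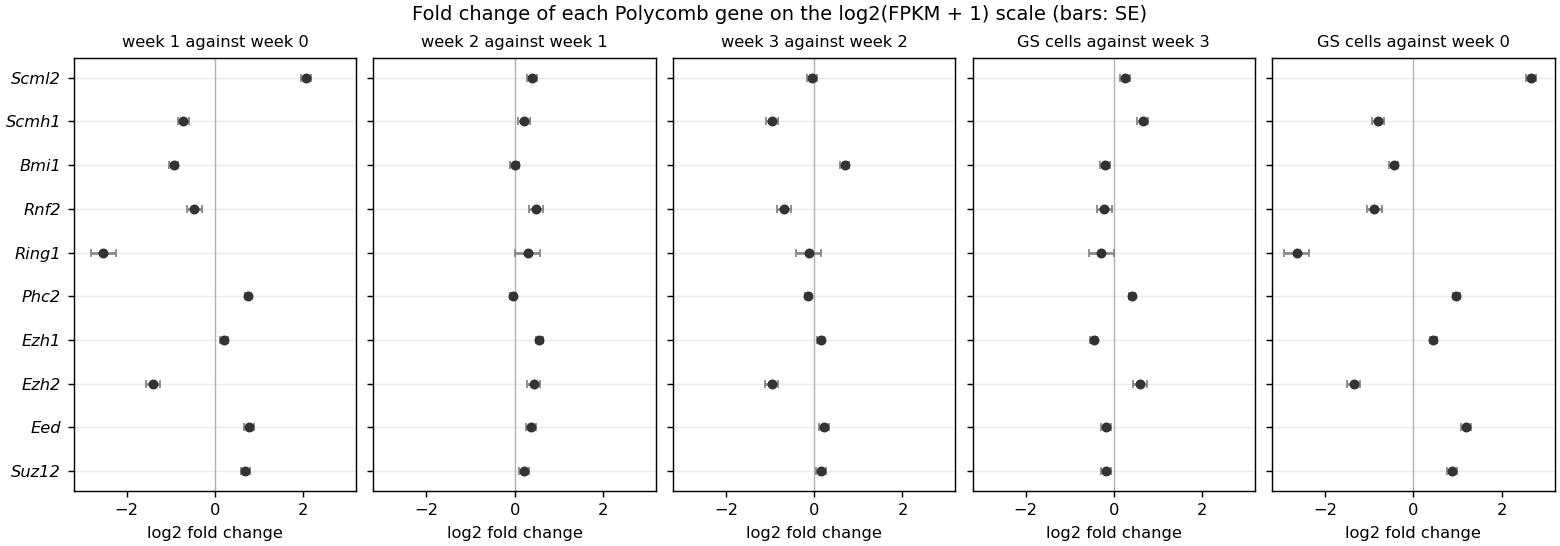
Log2 fold change of each member in 5 comparisons (limma on log2(FPKM + 1), error bars are 1 SE). Week 1 against week 0 and GS cells against week 0 hold the widest differences, 2.06 and 2.66 for Scml2 and -2.53 and -2.64 for Ring1.

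Counted against all genes tested, members were called at a Benjamini-Hochberg adjusted p under 0.05. For week 1 against week 0, 4 members were called higher and 5 lower, where 36.3% of the 15671 genes were called higher and 44.0% lower. For week 2 against week 1, 5 were called higher and 0 lower, where 28.2% and 27.4% of genes were called. For week 3 against week 2, 1 was called higher and 3 lower, where 10.6% and 10.7% of genes were called. For GS cells against week 3, 3 were called higher and 1 lower, where 11.7% and 10.8% of genes were called. For GS cells against week 0, 5 were called higher and 5 lower, where 34.7% and 45.9% of genes were called. Over all alternatives the number called higher ranged from 1 to 8 for week 2 against week 1 and from 0 to 3 for GS cells against week 3, and the number called lower from 1 to 3 for week 3 against week 2. Because the members were chosen with these contrasts known, nothing is read from the counts. With quantile normalization, week 1 against week 0 was -0.51 for Bmi1, -0.84 for Ezh2, 1.24 for Phc2, 1.23 for Eed and 1.17 for Suz12, all called as before. With a common FPKM sum, week 2 against week 1 was 0.71 for Scml2, 0.78 for Rnf2, 0.86 for Ezh1, 0.73 for Ezh2 and 0.67 for Eed, and Scmh1 (0.51), Suz12 (0.51) and Phc2 (0.26) were also called higher. The 5 comparisons share libraries, so their values are not independent of each other.

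Genes whose pattern over the 10 libraries was most like that of a member were taken by Pearson's r of log2(FPKM + 1), with no p. The 10 points are 5 groups of 2 libraries, so r mostly follows the group means. For Scml2 they were Wdr36, Smc3, Atp2b1, Hat1 and Zyg11b, with r of 0.996 to 0.997. Hat1, a histone acetyltransferase, averaged 41.9, 169, 216, 223 and 237 FPKM at weeks 0, 1, 2 and 3 and in GS cells, and Smc3, a cohesin subunit, 33.3, 95.1, 114, 115 and 131. For Ezh1 they were Samd1, Gins3, Plag1, Dhdds and Gm12258, with r of 0.983 to 0.992. For Ezh2 they were 1700080O16Rik, Obsl1, Dcaf12, Pja1 and Ccar2, with r of 0.970 to 0.984.

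A wider set of 53 other Polycomb genes, listed by role, was tested in the same limma fit with adjusted p over all 15671 genes. All 53 had a row and passed the filter. At week 1, 14 rose and 23 fell against week 0, and 16 did not pass, with a median log2 fold change of -0.28 beside -0.14 for all genes. With quantile normalization, which moved the all-gene median to 0.35, 25 were called higher and 18 lower. Of 9 PRC2 accessory proteins, 6 rose and 2 fell, and of 6 subunits of PR-DUB, the complex that removes the ubiquitin mark of PRC1, 0 rose and 4 fell. Of 14 partners of variant PRC1, 4 rose and 8 fell, while 5 were called higher and 4 lower with quantile normalization, and 5 and 6 with a common FPKM sum. Of all genes tested, 36.3% were called higher and 44.0% lower in this comparison.

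Phf1, a Polycomb-like protein of PRC2, had 15.6 and 16.8 FPKM in week 1, against 129.9 and 118 in week 0. Its fall was -2.86 (SE 0.09, limma adjusted p 1.61e-08). Phc1, a polyhomeotic relative of Phc2, had 41.8 and 40.1 FPKM in week 1, against 219.9 and 171 in week 0, and fell by 2.22 (SE 0.14, limma adjusted p 1.09e-06). Phc2 itself was higher in week 1 than in week 0 (0.75). L3mbtl4, an MBT domain protein, had 0.487 and 0.604 FPKM in week 1, against 9.82 and 10.2 in week 0 (log2 fold change -2.83, limma adjusted p 5.47e-08). Bcor, a corepressor of a variant PRC1, had 12.4 and 13.1 FPKM in week 1, against 3.39 and 2.83 in week 0 (1.74, limma adjusted p 2.20e-06). Kdm6b, a demethylase that removes the PRC2 mark, had 43.7 and 54.1 FPKM in week 1, against 14.6 and 15.2 in week 0 (1.64, limma adjusted p 9.97e-07). E2f6, a DNA-binding subunit of variant PRC1, had 42.0 and 44.3 FPKM in week 1, against 13.5 and 14.1 in week 0 (1.58, limma adjusted p 4.02e-07). These 6 genes were picked for the largest called differences of this comparison, so the separation of their libraries follows from the choice.

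**Figure D5:**
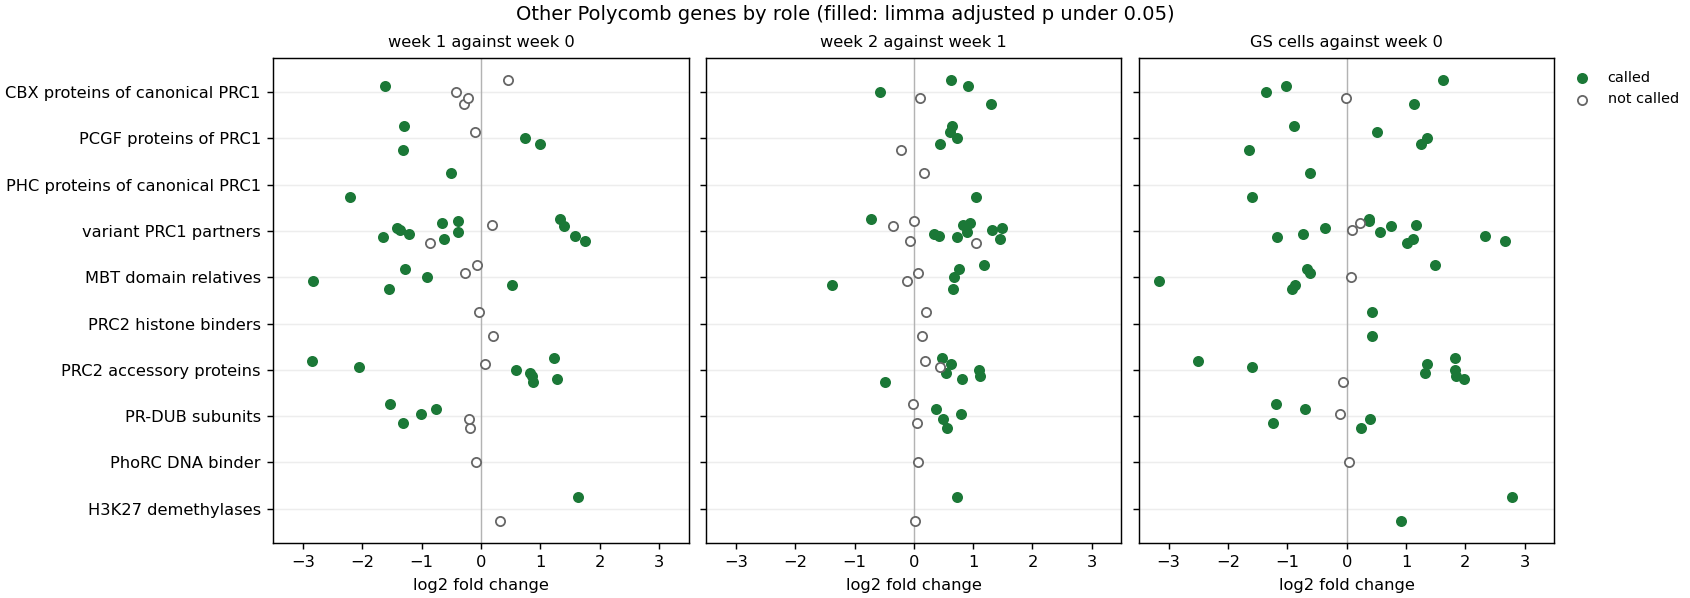
Log2 fold change of the 53 other Polycomb genes by role in 3 comparisons; filled points have a limma adjusted p under 0.05. PR-DUB subunits and MBT domain relatives lie mostly left of 0 in week 1 against week 0, and 32 of the 53 genes were called higher in week 2 against week 1. For week 1 against week 0, 1 MBT domain relative was called higher and 4 lower as deposited, and 3 and 4 with quantile normalization.

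At week 2, 32 rose and 4 fell against week 1, with a median of 0.54 beside 0.03 for all genes, of which 28.2% were called higher and 27.4% lower. The 10 fibroblast markers were 593 to 623 FPKM in week 2, against 6468 to 6562 in week 1, and their part in this difference was not tested. L3mbtl2, of a variant PRC1, had 46.0 and 51.0 FPKM in week 2, against 17.6 and 15.6 in week 1 (log2 fold change 1.49, SE 0.10, limma adjusted p 1.13e-05). Bcorl1, a relative of Bcor, had 16.2 and 20.6 FPKM in week 2, against 5.94 and 6.15 in week 1 (1.45, limma adjusted p 0.000142). Kdm2b, which brings variant PRC1 to CpG islands, had 79.4 and 93.8 FPKM in week 2, against 30.0 and 39.0 in week 1 (1.31, limma adjusted p 0.000133). All 3 had been called lower in week 1 than in week 0, a comparison that shares the week 1 libraries. The falls were L3mbtl3 at 0.694 and 0.399 FPKM in week 2, against 2.83 and 3.22 in week 1 (-1.39, limma adjusted p 0.000266), Yaf2 at 14.7 and 14.1 against 25.6 and 23.3 (-0.72, limma adjusted p 0.000527), and Cbx6 at 7.16 and 7.82 against 10.6 and 12.6 (-0.57, limma adjusted p 0.0366). The call of Cbx6 was lost in 8 of 19 alternatives. The fourth gene that fell, Aebp2, is a PRC2 accessory protein, at 35.6 and 32.4 FPKM in week 2, against 47.3 and 48.6 in week 1, named here after its values were seen.

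Fewer of the 53 genes passed between weeks 2 and 3 and between week 3 and GS cells. At week 3, 7 rose and 5 fell against week 2, with a median of 0.08 beside 0.00 for all genes, of which 10.6% were called higher and 10.7% lower, and 4 of the 5 that fell were PRC2 accessory proteins. Phf19 had 1.09 and 1.51 FPKM in week 3, against 4.25 and 4.64 in week 2 (-1.25, limma adjusted p 0.00176). Ezhip, a germline inhibitor of PRC2, had 13.5 and 14.8 FPKM in week 3, against 23.2 and 26.4 in week 2 (-0.77, limma adjusted p 0.00956). Epop had 9.15 and 7.62 FPKM in week 3, against 14.1 and 14.6 in week 2 (-0.72, limma adjusted p 0.00919). The rises were Bcor (1.15, limma adjusted p 0.000756), Cbx2, a chromodomain subunit of canonical PRC1 (0.83, limma adjusted p 0.00296), and Asxl1, a cofactor of PR-DUB (0.55, limma adjusted p 0.00666). Without the second week 2 library the total of 12 called genes was 4, and without the first it was 6.

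In GS cells 7 rose and 8 fell against week 3, with a median of -0.07 beside -0.01 for all genes, of which 11.7% were called higher and 10.8% lower. Phf19 rose to 4.75 and 5.09 FPKM in GS cells, against 1.09 and 1.51 in week 3 (1.37, limma adjusted p 0.00124), and Cbx2 fell to 32.1 and 31.1 FPKM in GS cells, against 57.3 and 47.8 in week 3 (-0.71, limma adjusted p 0.00566). Both thus reversed their direction of week 3 against week 2, in comparisons that share the week 3 libraries. Kdm6b (0.73, limma adjusted p 0.00247) and Usp7, a deubiquitinase of variant PRC1 (0.65, limma adjusted p 0.0159), rose, and Foxk1 (-0.70, limma adjusted p 0.00477) and Pcgf6 (-0.68, limma adjusted p 0.00511) fell. The total of 15 called genes was 8 without the first week 3 library and 8 without the second GS cell library.

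Over the whole course, 27 rose and 19 fell in GS cells against week 0, and 7 did not pass, with a median of 0.24 beside -0.21 for all genes, of which 34.7% were called higher and 45.9% lower. With quantile normalization 36 were called higher and 12 lower, and with a common FPKM sum 34 and 15. Variant PRC1 partners held 9 that rose and 3 that fell of 14, PRC2 accessory proteins 6 and 2 of 9, and MBT domain relatives 1 and 5 of 7, the last being 3 and 2 with quantile normalization. Kdm6b had 109.6 and 108 FPKM in GS cells, against 14.6 and 15.2 in week 0 (2.79, limma adjusted p 3.80e-08). Bcor had 25.0 and 25.4 FPKM in GS cells, against 3.39 and 2.83 in week 0 (2.68, limma adjusted p 1.52e-07), and E2f6 71.1 and 75.9 against 13.5 and 14.1 (2.33, limma adjusted p 3.72e-08). Falls were largest for L3mbtl4, at 0.277 and 0.175 FPKM in GS cells, against 9.82 and 10.2 in week 0 (-3.17, limma adjusted p 2.80e-08), for Phf1, at 20.8 and 21.2 against 129.9 and 118 (-2.50, limma adjusted p 3.53e-08), and for Pcgf1, a PCGF subunit of variant PRC1, at 17.2 and 11.6 against 49.0 and 43.8 (-1.64, limma adjusted p 0.00036). The core histone binders of PRC2, Rbbp4 and Rbbp7, were both called higher in GS cells than in week 0, by 0.43 each.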

How the data were processed

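Total RNA of 10 libraries was made into libraries with a stranded mRNA kit, per the labels' protocols. The authors deposited normalized FPKM values per gene. Per the submitters' processing notes, the genome was mm10 and the tools were HISAT2 2.1.0, Bowtie2 2.3.4.1, Cuffdiff, Cufflinks 2.2.1, bcl2fastq 2.17.1.14 and cutadapt 1.16, with roles and gene annotation not given in the sources used here. Of 21969 gene IDs, 21951 were in GENCODE M21, and 27 symbols that a spreadsheet had turned into dates were restored. Depth was estimated from steps between low values, 95.7% to 99.2% of which were whole reads within 0.15 read per library.

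Genes with FPKM of 1 or more in at least 2 libraries were fitted as log2(FPKM + 1) in limma 3.58.1 (R 4.3.3), with 5 groups in 1 fit, an intensity trend and 5 residual degrees of freedom. The added 1 shrinks differences of genes at low levels. Calls were two-sided at a Benjamini-Hochberg adjusted p under 0.05. The fit was tested on simulated data. The members and gene lists were chosen with earlier results of these data known. Named genes were all members and, in each comparison, the 3 called genes of the wider set with the largest rise and the 3 with the largest fall. Same-numbered libraries were not treated as pairs across groups in the main fit. A total of 19 alternatives were tried.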

Additional observations from a re-analysis of the deposited data

How the results depend on the processing

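Of 950 combinations of a member's log2 fold change and an alternative, 862 moved by less than the residual SD and 87 by more, and 1 changed the sign of a called difference: Bmi1 for GS cells against week 0 was 0.027 with a common FPKM sum and -0.45 as deposited. Another 9 changed the sign of a difference that was not called: Bmi1 (up to 0.29), Phc2 (0.26) and Ring1 (-0.08) for week 2 against week 1, Ring1 (0.25) and Scml2 (0.05) for week 3 against week 2, and Ring1 (0.09) for GS cells against week 3. For the 30 named log2 fold changes of other Polycomb genes, 550 of 567 kept their call, 17 lost it (Cbx6, Epop, Ezhip, Cbx2, Foxk1 and Usp7) and 0 changed sign. Fitting only the 2 groups compared gave 1880 called genes in place of 3339 for week 3 against week 2, and 1326 in place of 3526 with 5 other Polycomb genes in place of 15 for GS cells against week 3. Leaving out 1 library gave 1587 to 3523 called genes and 4 to 15 other Polycomb genes for week 3 against week 2, and 1788 to 3708 and 8 to 15 for GS cells against week 3. A group left with 1 library was assumed to vary like the others. These fits hold fewer libraries, and the cause of the differences in counts was not tested. The share of called genes that were higher, 45.2% for week 1 against week 0 and 43.0% for GS cells against week 0, was 59.3% and 60.3% with quantile normalization, and that for week 2 against week 1, 50.7%, was 61.8% with quantile normalization and 66.2% with a common FPKM sum. The common sum gave 54.1% for GS cells against week 0. All-gene medians moved to 0.42 with quantile normalization and 0.17 with a common FPKM sum for GS cells against week 0. Scml2 for week 1 against week 0 stood 2.197 above the all-gene median as deposited, 2.097 with quantile normalization and 2.23 with a common FPKM sum. With 2 libraries a group and a replicate block, 39, 36, 13, 15 and 44 other Polycomb genes were called in the 5 comparisons in the order of the report, against 37, 36, 12, 15 and 46 without it. Differences between the 2 libraries of a group correlated at -0.053 to 0.046 between groups. This shows no shared deviation of same-numbered libraries, but cannot tell whether they came from parallel cultures. With 1 library left out, the calls of Scml2 for week 2 against week 1 (0.33 without the first week 1 library, 0.36 without the first week 2 library), Rnf2 for week 1 against week 0 (-0.55 to -0.38) and Scmh1 for GS cells against week 3 (0.56 without the first week 3 library, 0.55 without the first GS cell library) were lost. So were those of Rnf2 for week 2 against week 1 (0.40 to 0.56, without any 1 library of weeks 0 to 2) and for week 3 against week 2 (-0.77 to -0.50, without any 1 library of weeks 0 and 2 or the first of week 3), of Ezh2 for week 2 against week 1 (0.37 to 0.49, without any 1 library of weeks 0 to 2 or of GS cells) and for GS cells against week 3 (0.34 to 0.67, without any 1 library of GS cells or week 0 or the first of week 3), and of Eed for week 2 against week 1 (0.20 without the first week 1 library, 0.34 to 0.39 without a week 2 library). Ezh1 for week 1 against week 0 gained a call at 0.27 without the second week 0 library. Calls that changed with the scaling are given beside each gene. Fitting only the 2 groups compared, the calls of Eed for week 2 against week 1, Rnf2 and Ezh2 for week 3 against week 2, and Scmh1, Phc2 and Ezh2 for GS cells against week 3 were lost. Those of Rnf2 and Ezh2 for week 2 against week 1 were lost with no filter and with the block.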

Other observations

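Scml2 and 5 of the other Polycomb genes, Bcor, Bcorl1, Kdm6a, Rbbp7 and Ezhip, lie on chromosome X, a grouping made after the values were seen. All 5 were called higher in GS cells than in week 0 in the limma fit. Kdm6a, a demethylase of the PRC2 mark, had 13.6 and 17.1 FPKM in GS cells, against 6.47 and 8.86 in week 0, and Ezhip had 23.8 and 21.2 FPKM in GS cells, against 4.72 and 6.51 in week 0. Of 646 tested genes on chromosome X, 308 were called higher in GS cells than in week 0 (47.7%) and 239 lower, with a median log2 fold change of 0.29. Of 15025 tested genes elsewhere, 34.1% were called higher and 46.3% lower, with a median of -0.23. At week 1 against week 0, 2 of the 5 were called higher and 1 lower. Of the X-linked genes, 51.5% were called higher and 32.7% lower in that comparison, and of genes elsewhere 35.6% and 44.5%. The 9 spermatocyte markers summed to 185 to 208 FPKM in GS cells, against 4835 to 5197 in week 0, and their part in these differences was not tested.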
